A study of Mus musculus with 8 samples.

Results

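The genes described here build or control the contractile apparatus of smooth muscle cells and myofibroblasts, measured in fibroblasts sorted from the mouse colon. A list of 34 genes was taken, and a gene counted as measured where a transcript cluster of the array was annotated to that gene and no other. On this rule 32 of the 34 genes were measured, out of 30723 genes measured in all. Myl6, a myosin light chain gene, and Pdlim7, a PDZ-LIM protein gene, stood only in clusters annotated to several genes and were not analysed. Each of the 32 genes had 1 cluster, so none had to be chosen by its mean.

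RNA came from the colon of wild-type C57BL/6J mice, untreated as far as the labels say, and their age was not given. Cells lacking Epcam, CD45 and CD31 and carrying gp38 (podoplanin) were split by surface CD90, coded by Thy1, into a CD90-negative population (samples 13, 15, 17 and 19) and a CD90-positive one (samples 14, 16, 18 and 20). Each population had 4 samples with 1 array each, from 4 mice in all. The series' design text gives the same mice for both populations, but the labels tie no sample to a mouse, so the fits take the samples as independent. P-values therefore measure the spread between these samples. Sets of values are given below in the order of those sample numbers.

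Smooth muscle contracts when myosin II filaments pull on actin filaments that are anchored at dense bodies and adhesion plaques. Calcium and calmodulin switch on myosin light chain kinase, which phosphorylates the regulatory light chain, and myosin phosphatase reverses this step. Many genes of the apparatus are driven by serum response factor (SRF), which binds a DNA element called the CArG box together with myocardin or the actin-sensing cofactor MRTF-A. In the gut wall this gene set is known from the muscle layers, from vascular mural cells and, in part, from myofibroblasts beneath the epithelium.

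Values are the deposited log2 expression, and a difference is the CD90-positive mean less the CD90-negative one on that scale. The scale reached 19.85, so differences do not translate into ratios of RNA amounts. Means carry their SD (n = 4 in each population). A gene was called when its adjusted p, from limma's moderated test fitted over all 17214 tested genes, was under 0.05. The array's negative control rows had a median of 6.81 ± 0.02 over the CD90-negative arrays and 6.64 ± 0.045 over the others, and a value below them is uncertain in size. Thy1 was between 5.46 and 5.57 in CD90-negative samples and between 7.03 and 8.11 in CD90-positive ones, where sample 14 was lowest. Epcam was between 7.21 and 9.19 and between 7.47 and 9.40, with both means above the negative controls, and was not called. Pecam1, which codes for CD31, averaged 6.24 ± 0.34 and 6.59 ± 0.51. It was called only without sample 14 (higher, limma adjusted p = 0.0429) and without samples 13 and 14. Ptprc, which codes for CD45, averaged 4.57 ± 0.12 and 4.75 ± 0.21 and was not tested. The 6 measured of 7 fibroblast markers averaged 15.29 to 15.51 and 15.44 to 15.61, so both populations carried the labelled cell type's genes. Of these 6, Dcn and Lum were called higher and Col1a2 lower (14.0% and 15.7% of all tested genes). One of the 6, Pdpn, codes for podoplanin, on which the cells were sorted. Samples 13 and 14 stood apart in sex-linked genes: Xist was at 16.16 and 16.27 there and at most 9.32 in the other 6 samples. Uty, a gene of the Y chromosome, was at 5.49 and 5.56 there and at least 9.65 in the other 6. Results are therefore also given without both.

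Most of the contractile genes were lower in CD90-positive fibroblasts, and a smaller number were higher. Of 31 tested members, 21 fell, 6 rose and 4 did not pass the test. The members were chosen with earlier results of these data known, so the comparisons with all tested genes are descriptions only. Over all 17214 tested genes, 15.7% were called lower, 14.0% higher and 29.6% in either direction. The 6 of 31 that rose lie near the 14.0% share, so their number is not read as a trait of the members. The genes that fell included the smooth muscle actin gene Acta2, Tagln, Myl9, Mylk, Pdlim3 and Actn1, while Actg2, Cnn1, Lmod1, Des, Synm and Myocd rose. The median difference of the 31 members was -1.05, beside -0.014 over all tested genes. In 27 of the 31 the populations did not overlap, beside 32.2% of all tested genes. Calls of at least 1 on the log2 scale were lower in 17 of the 31, beside 3.43% of all tested genes, and higher in 4 of the 31, beside 3.77%.

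Ldb3, which codes for a Z-disc protein of striated muscle, was dimmer than the filter on low values and was not tested. It lay between 4.93 and 5.07 in CD90-negative and between 5.05 and 5.30 in CD90-positive samples, below the negative control rows in both. Lmod1 and Myocd each reached the filter in 2 of 4 CD90-negative samples and so passed it through their CD90-positive values. Without the filter, 20 of all 32 measured members fell and 5 rose (8.13% and 7.98% of 30723 genes, 16.1% in either direction), with Cnn3 and Actg2 no longer called. The median difference was then -1.03. These are sorted bulk samples, so a lower value can mean fewer cells with a transcript or less of it per cell, and the data cannot tell these apart.

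**Figure D1:**
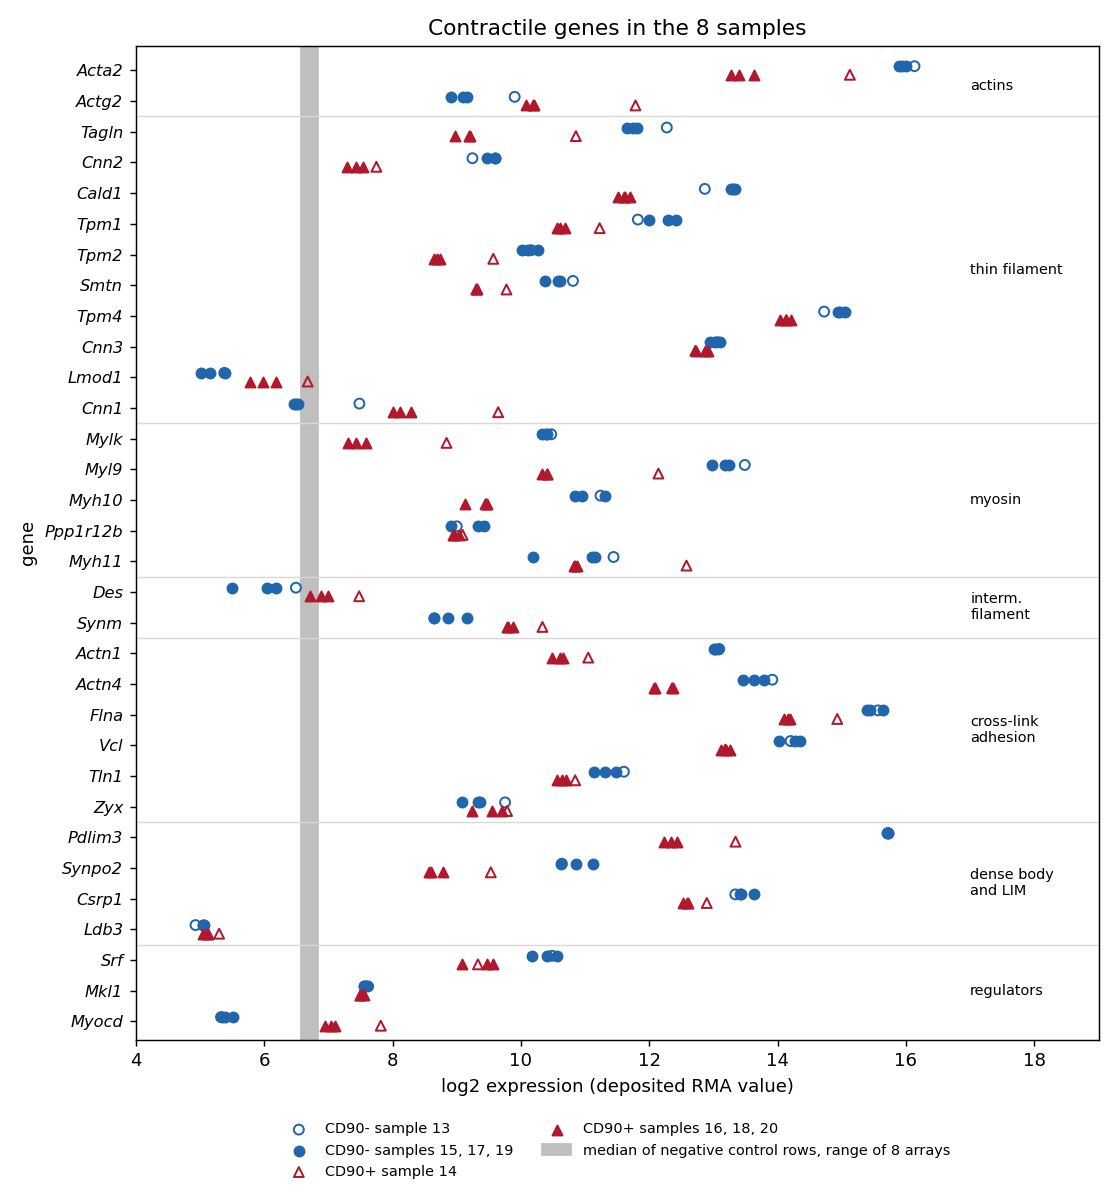
Deposited log2 expression (horizontal axis) of the 32 measured contractile genes (vertical axis, grouped by role), with 1 point per sample, blue circles for CD90-negative and red triangles for CD90-positive samples. Open symbols mark samples 13 and 14, and the grey band is the range over the 8 arrays of the median of the negative control rows. Acta2 lay at 15.89 or above in every CD90-negative sample, and the open triangle of sample 14 lay to the right of the other CD90-positive samples in 23 of the 31 tested genes.

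The transcriptional regulators of the apparatus moved in different directions. Srf, the gene of the factor that binds CArG boxes, was at 10.49, 10.17, 10.56 and 10.41 in CD90-negative samples and 9.33, 9.56, 9.09 and 9.47 in CD90-positive ones. Every CD90-positive value lay below every CD90-negative one, and sample 14 was within the range of its population. Its means were 10.41 ± 0.17 and 9.36 ± 0.21, a fall of 1.05 (SE 0.12, limma adjusted p = 0.000287). Myocd codes for myocardin, the SRF cofactor that is found in smooth and cardiac muscle. It was at 5.33, 5.34, 5.51 and 5.39 in CD90-negative samples and 7.82, 7.10, 7.04 and 6.95 in CD90-positive ones. All CD90-positive values were higher, with sample 14 the highest, while all CD90-negative values lay below the negative control rows. The rise of 1.83 (SE 0.18, limma adjusted p = 9.68e-05) therefore starts from a level that is uncertain in size. Mkl1, now named Mrtfa, codes for the actin-sensing cofactor MRTF-A and was at 7.62, 7.55, 7.59 and 7.55 in CD90-negative samples and 7.54, 7.56, 7.49 and 7.49 in CD90-positive ones. All 8 values were close and the populations overlapped. Its means were 7.58 ± 0.033 and 7.52 ± 0.035, and the 95% interval of its difference ran from -0.18 to 0.066 (limma adjusted p = 0.477).

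CArG boxes were searched in RefSeq's promoter windows of build GRCm38.p6, 250 bases before to 50 after each start, in the strict form of the motif, a run of C, then of A or T, then of G bases, which reads alike on both strands. Of the 30 members with a window, 6 held at least 1 (20.0%), beside 1.81% of the 27025 genes with a window. The table has no entry for Actg2, Myh11, Myocd and Tagln. The members with a match were Srf, Myl9, Cnn2 and Vcl, which all fell, and Myl6 and Ldb3, which were not tested. Thus 4 of the 20 members that fell and have a window held a motif, 0 of 4 that rose and 0 of 3 that were not called. The last 2 groups are too small to compare with 20.0%, and Actg2 and Myocd, which rose, have no window. The search passes over motifs with a changed base, and Acta2, which fell, had no strict match. A match is a description of the sequence and was not tested as a binding site. The 250 bases before the start of the 4 tested genes are shown because they let a reader see where the motif, in capitals, stands in promoters of members that fell. In Srf the 2 motifs begin 82 and 62 bases before the start, in Myl9 161, in Cnn2 56 and in Vcl 227 bases before it.
Srf (chr17:46556163-46556412, reverse strand): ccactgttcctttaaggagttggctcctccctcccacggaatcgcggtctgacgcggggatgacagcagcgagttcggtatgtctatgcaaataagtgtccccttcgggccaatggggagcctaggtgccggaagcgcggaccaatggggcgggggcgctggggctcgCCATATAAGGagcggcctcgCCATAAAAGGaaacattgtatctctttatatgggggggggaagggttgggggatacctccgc
Myl9 (chr2:156775214-156775463, forward strand): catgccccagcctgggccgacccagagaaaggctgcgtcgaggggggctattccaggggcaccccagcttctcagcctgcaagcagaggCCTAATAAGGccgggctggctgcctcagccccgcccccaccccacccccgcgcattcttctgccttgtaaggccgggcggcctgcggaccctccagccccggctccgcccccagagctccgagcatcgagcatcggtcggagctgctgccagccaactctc
Cnn2 (chr10:79988350-79988599, forward strand): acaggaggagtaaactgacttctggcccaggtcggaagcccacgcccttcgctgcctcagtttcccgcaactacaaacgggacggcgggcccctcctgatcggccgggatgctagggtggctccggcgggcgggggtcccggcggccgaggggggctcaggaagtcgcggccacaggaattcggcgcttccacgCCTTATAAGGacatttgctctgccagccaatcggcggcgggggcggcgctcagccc
Vcl (chr14:20929148-20929397, forward strand): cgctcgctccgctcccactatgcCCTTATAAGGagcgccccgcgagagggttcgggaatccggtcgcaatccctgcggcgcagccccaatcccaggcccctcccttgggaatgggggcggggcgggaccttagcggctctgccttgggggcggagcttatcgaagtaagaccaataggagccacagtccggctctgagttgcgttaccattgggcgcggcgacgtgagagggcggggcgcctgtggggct

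The 2 measured smooth muscle actin genes moved in opposite directions. Acta2 codes for alpha smooth muscle actin, the actin of vascular smooth muscle and of myofibroblasts, and was at 16.13, 16.00, 15.93 and 15.89 in CD90-negative samples and 15.13, 13.63, 13.39 and 13.28 in CD90-positive ones. CD90-negative samples lay within a narrow range, and sample 14 stood between them and the other CD90-positive samples. The fall was 2.13 (SE 0.36, limma adjusted p = 0.00247), and the difference was -2.55 without sample 14. Actg2, the gamma actin of enteric smooth muscle, was at 9.90, 8.92, 9.10 and 9.15 in CD90-negative samples and 11.79, 10.20, 10.19 and 10.08 in CD90-positive ones. Here sample 14 was the highest of all 8, sample 13 was the highest CD90-negative one, and the gap between the populations was narrow. Its rise of 1.30 (SE 0.39, limma adjusted p = 0.0355) was 0.89 without sample 14 (limma adjusted p = 0.0183). Leaving out sample 15, 17, 18 or 19 ended the call, and the highest limma adjusted p was then 0.0867. The 2 genes code for nearly identical proteins, so reads of one by the probes of the other cannot be told apart here.

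Among the proteins that bind and stabilise thin filaments, 8 of 10 fell and 2 rose. Tagln codes for transgelin (SM22 alpha), an early marker of smooth muscle and myofibroblasts. It was at 12.27, 11.65, 11.74 and 11.80 in CD90-negative samples and 10.86, 8.97, 9.19 and 9.21 in CD90-positive ones. The populations were apart, with sample 14 nearer to the CD90-negative samples than the other 3. Tagln fell by 2.31 (SE 0.39, limma adjusted p = 0.00217) and its difference was -2.75 without sample 14.

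The 3 calponin genes, whose proteins bind actin and tropomyosin, differed in direction. Cnn1, the calponin of differentiated smooth muscle, was at 7.48, 6.53, 6.49 and 6.46 in CD90-negative samples and 9.65, 8.28, 8.01 and 8.12 in CD90-positive ones. It was higher in every CD90-positive sample, highest in sample 14, and among CD90-negative samples highest in sample 13. The rise was 1.77 (SE 0.38, limma adjusted p = 0.00833), from a CD90-negative mean just below the negative control rows. Cnn2, a calponin of non-muscle cells as well, was at 9.24, 9.46, 9.59 and 9.59 in CD90-negative samples and 7.75, 7.54, 7.29 and 7.43 in CD90-positive ones. The 2 sets lay far apart relative to their spread, and Cnn2 fell by 1.97 (SE 0.12, limma adjusted p = 5.43e-06). Cnn3, the acidic calponin, was at 13.06, 12.95, 13.11 and 13.03 in CD90-negative samples and 12.72, 12.92, 12.73 and 12.87 in CD90-positive ones. The lowest CD90-negative and highest CD90-positive values nearly met, and sample 14 was the lowest of all 8. The means were 13.04 ± 0.068 and 12.81 ± 0.10, a fall of 0.23 (SE 0.071, limma adjusted p = 0.0415). That small call was lost when any 1 of samples 13, 14, 17, 18, 19 or 20 was left out (limma adjusted p at most 0.108) and without both 13 and 14.

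Tropomyosins lie along the actin filament and set which proteins can bind it, and all 3 measured genes fell. Tpm1 was at 11.82, 12.00, 12.42 and 12.29 in CD90-negative samples and 11.23, 10.69, 10.61 and 10.57 in CD90-positive ones. Tpm2 was at 10.16, 10.01, 10.26 and 10.11 in CD90-negative samples and 9.57, 8.64, 8.73 and 8.70 in CD90-positive ones. In both genes samples 16, 18 and 20 lay close together and sample 14 stood above them without reaching the CD90-negative samples. Tpm1 fell by 1.36 (SE 0.18), Tpm2 by 1.22 (SE 0.20) and Tpm4, a cytoskeletal tropomyosin, by 0.79 (SE 0.082), with limma adjusted p of 0.000554, 0.00169 and 0.000146. Tpm4 was at 14.72, 15.04, 14.98 and 14.94 in CD90-negative samples and 14.13, 14.14, 14.22 and 14.04 in CD90-positive ones, and there sample 14 lay among the other 3 CD90-positive samples. Tropomyosin genes are close paralogs, and how far their probes are specific was not tested.

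Caldesmon and smoothelin, which bind actin in contractile filaments, were also lower. Cald1, the caldesmon gene, was at 12.87, 13.27, 13.30 and 13.34 in CD90-negative samples and 11.63, 11.70, 11.51 and 11.61 in CD90-positive ones. The CD90-positive samples agreed closely, and the lowest CD90-negative value was that of sample 13. Cald1 fell by 1.58 (SE 0.11, limma adjusted p = 1.41e-05), with no shift of sample 14. Smtn, the smoothelin gene, was at 10.81, 10.38, 10.61 and 10.57 in CD90-negative samples and 9.77, 9.32, 9.29 and 9.29 in CD90-positive ones. The sets were apart, and samples 13 and 14 were each the highest of their population. Smtn fell from 10.59 ± 0.18 to 9.42 ± 0.24 (limma adjusted p = 0.000245). Lmod1 codes for leiomodin, which seeds actin filaments in smooth muscle, and was at 5.38, 5.02, 5.15 and 5.38 in CD90-negative samples and 6.68, 6.18, 5.78 and 5.99 in CD90-positive ones. Every CD90-positive value was higher and sample 14 the highest. Lmod1 rose from 5.23 ± 0.18 to 6.16 ± 0.38 (limma adjusted p = 0.00565), and both means were below the array's negative controls.

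Of the 5 tested genes of myosin and its regulators, 3 fell and 2 were not called. Myl9, the regulatory light chain of smooth muscle myosin, was at 13.49, 12.98, 13.24 and 13.18 in CD90-negative samples and 12.14, 10.41, 10.41 and 10.34 in CD90-positive ones. Samples 16, 18 and 20 lay together at the bottom, and sample 14 stood well above them. Myl9 fell by 2.40 (SE 0.38, limma adjusted p = 0.00165) and its difference was -2.84 without sample 14. Mylk codes for the kinase that phosphorylates this light chain and was at 10.47, 10.40, 10.39 and 10.33 in CD90-negative samples and 8.84, 7.44, 7.58 and 7.31 in CD90-positive ones. The CD90-negative samples hardly differed from each other, and Mylk fell by 2.61 (SE 0.30, limma adjusted p = 0.000265). Myh10, a non-muscle myosin II heavy chain, was at 11.24, 10.96, 10.84 and 11.31 in CD90-negative samples and 9.45, 9.45, 9.13 and 9.47 in CD90-positive ones. It fell by 1.71 (SE 0.13, limma adjusted p = 1.97e-05), and sample 14 lay among the other CD90-positive samples.

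Myh11, the smooth muscle myosin heavy chain and a defining marker of mature smooth muscle, was not called. It was at 11.44, 10.19, 11.15 and 11.10 in CD90-negative samples and 12.58, 10.85, 10.87 and 10.83 in CD90-positive ones. The populations overlapped: sample 14 was the highest of all 8, sample 15 the lowest, and samples 16, 18 and 20 lay below 3 of the 4 CD90-negative samples. The difference was 0.31 with a 95% interval of -0.67 to 1.29 (limma adjusted p = 0.637), and it was -0.12 without sample 14 and 0.036 without samples 13 and 14, so no direction can be given. Ppp1r12b, a targeting subunit of myosin phosphatase, was between 8.90 and 9.43 in CD90-negative samples and between 8.94 and 9.09 in CD90-positive ones. The CD90-negative values straddled the CD90-positive ones. The difference was -0.16 (95% interval -0.44 to 0.12, limma adjusted p = 0.363).

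Both intermediate filament genes rose. Des codes for desmin, which links dense bodies in muscle cells, and was at 6.49, 5.50, 6.18 and 6.04 in CD90-negative samples and 7.48, 6.72, 6.88 and 6.99 in CD90-positive ones. All CD90-positive values were higher, though the CD90-negative ones lay below the negative control rows and the CD90-positive ones little above them. Samples 13 and 14 were the highest of their populations. Des rose by 0.96 (SE 0.23, limma adjusted p = 0.0125). Synm, the gene of synemin, a partner of desmin, was at 8.65, 8.65, 9.16 and 8.86 in CD90-negative samples and 10.34, 9.79, 9.87 and 9.79 in CD90-positive ones. The sets were apart, again with sample 14 on top, and Synm rose by 1.12 (SE 0.16, limma adjusted p = 0.000819).

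**Figure D2:**
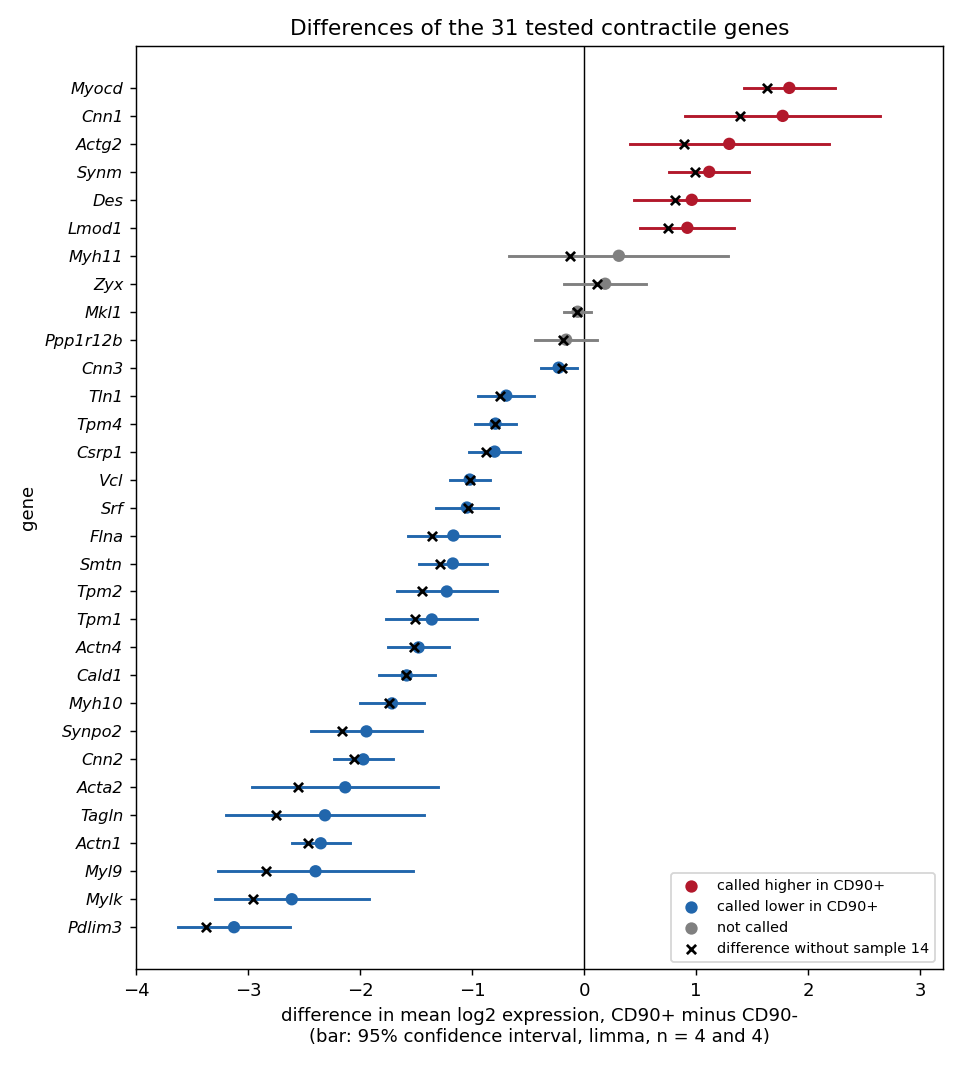
Difference in mean log2 expression between CD90-positive and CD90-negative samples (horizontal axis) for the 31 tested contractile genes (vertical axis, ordered by difference). Dots are differences over all 8 samples with their 95% confidence intervals from limma, coloured by call, and crosses are differences without sample 14. The 21 genes called lower range from -3.12 for Pdlim3 to -0.23 for Cnn3, the 6 called higher from 0.92 for Lmod1 to 1.83 for Myocd, and the cross of Myh11 alone falls on the other side of 0 from its dot.

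Actin cross-linkers and adhesion plaque proteins connect filaments to each other and to integrins, and 5 of 6 fell. Actn1, an alpha-actinin that cross-links actin, was at 13.09, 13.02, 13.02 and 13.08 in CD90-negative samples and 11.05, 10.49, 10.61 and 10.65 in CD90-positive ones. The difference was large against a very small spread among CD90-negative samples, and Actn1 fell by 2.35 (SE 0.11, limma adjusted p = 1.96e-06). Its paralog Actn4 was at 13.92, 13.45, 13.63 and 13.79 in CD90-negative samples and 12.36, 12.08, 12.08 and 12.38 in CD90-positive ones. Sample 14 lay within its population, and Actn4 fell by 1.48 (SE 0.12, limma adjusted p = 3.46e-05). Flna, the filamin A gene, was at 15.56, 15.39, 15.44 and 15.65 in CD90-negative samples and 14.93, 14.20, 14.09 and 14.16 in CD90-positive ones. It was bright in all 8 samples and fell by 1.17 (SE 0.18, limma adjusted p = 0.00132).

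Vcl codes for vinculin, which strengthens the link between integrins and actin, and was at 14.20, 14.03, 14.26 and 14.34 in CD90-negative samples and 13.19, 13.26, 13.12 and 13.19 in CD90-positive ones. Both populations were tight, sample 14 did not stand out, and Vcl fell by 1.02 (SE 0.079, limma adjusted p = 2.5e-05). Tln1, the gene of the integrin activator talin, was at 11.60, 11.14, 11.32 and 11.47 in CD90-negative samples and 10.85, 10.56, 10.65 and 10.70 in CD90-positive ones. The sets were apart but nearer to each other than those of Actn1, and Tln1 fell by 0.69 (SE 0.11, limma adjusted p = 0.00157). Zyx, which codes for the stress fibre protein zyxin, was at 9.75, 9.08, 9.36 and 9.33 in CD90-negative samples and 9.78, 9.70, 9.24 and 9.55 in CD90-positive ones. The populations overlapped, with samples 13 and 14 each the highest of its own. The means were 9.38 ± 0.28 and 9.57 ± 0.24, and the 95% interval of its difference was -0.18 to 0.56 (limma adjusted p = 0.425).

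All 3 tested genes of dense body and LIM domain proteins fell. Pdlim3, a PDZ-LIM protein that binds alpha-actinin, had the greatest difference of the 31 members. It was at 15.72, 15.71, 15.71 and 15.71 in CD90-negative samples and 13.34, 12.34, 12.43 and 12.23 in CD90-positive ones. The 4 CD90-negative samples were almost equal (SD 0.0051), and sample 14 stood above the other CD90-positive samples. Pdlim3 fell by 3.12 (SE 0.22, limma adjusted p = 1.46e-05). Synpo2, an actin-bundling protein of smooth muscle dense bodies, was at 10.64, 10.63, 11.13 and 10.85 in CD90-negative samples and 9.53, 8.58, 8.78 and 8.59 in CD90-positive ones. It showed the same placement of sample 14 and fell by 1.94 (SE 0.22, limma adjusted p = 0.000226). Csrp1, a LIM protein of smooth muscle, was at 13.34, 13.63, 13.42 and 13.42 in CD90-negative samples and 12.90, 12.60, 12.59 and 12.53 in CD90-positive ones. The sets were apart, with sample 14 the highest CD90-positive value, and Csrp1 fell by 0.80 (SE 0.099, limma adjusted p = 0.000397).

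Sample 14 was set beside samples 16, 18 and 20 for every member. It lay above all 3 in 23 of the 31 tested members, between or level with them in 7 and below them in 1, Cnn3. Over all tested genes sample 14 lay above the other 3 in 30.3% and was not below all 3 in 66.0%. It was at least 0.5 above their median in 16 of the 31 members, beside 3.94% of all tested genes. The median of sample 14 minus their median was 0.54 over the members and -0.011 over all tested genes. The shift took in genes of both directions: sample 14 was the highest CD90-positive sample for 14 of the 21 members that fell and for all 6 that rose. It was 1.74 above the median of the other 3 for Myl9, 1.73 for Acta2, 1.73 for Myh11, 1.66 for Tagln, 1.59 for Actg2, 1.52 for Cnn1 and 1.41 for Mylk. Among the 6 cross-linker and adhesion genes it was 0.77 for Flna, 0.44 for Actn1, 0.27 for Actn4, 0.23 for Zyx, 0.20 for Tln1 and -0.0058 for Vcl.

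Without sample 14, 20 members fell and 6 rose (14.8% and 13.8% of all tested genes, 28.5% in either direction), and the member that lost its call was Cnn3 (limma adjusted p = 0.0867). The differences of Acta2, Tagln, Myl9, Mylk and Pdlim3 grew in size, the last to -3.38, and those of all 6 members that rose shrank, Cnn1 to 1.40, Myocd to 1.64 and Synm to 0.99. Within samples 15 to 20 alone the counts were again 20 and 6 (17.1% and 14.5% of all tested genes, 31.6% in either direction), and all 27 called members kept their sign. Sample 14 minus sample 13, the 2 samples with high Xist, had the sign of the pooled difference in all 27 as well. The populations did not overlap in any of these 27, so both agreements in sign were fixed in advance and add no support. The single pair of samples 13 and 14 gives no error: its difference was -1.01 for Acta2, -1.42 for Tagln, 1.88 for Actg2 and 2.16 for Cnn1.

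Sample 13 stood apart less. It was above samples 15, 17 and 19 in 15 of the 31 members (24.8% of all tested genes), below them in 6 (39.6%) and at least 0.5 above their median in 3, beside 4.82% of all tested genes. The 3 were Cnn1, Actg2 and Tagln.

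**Figure D3:**
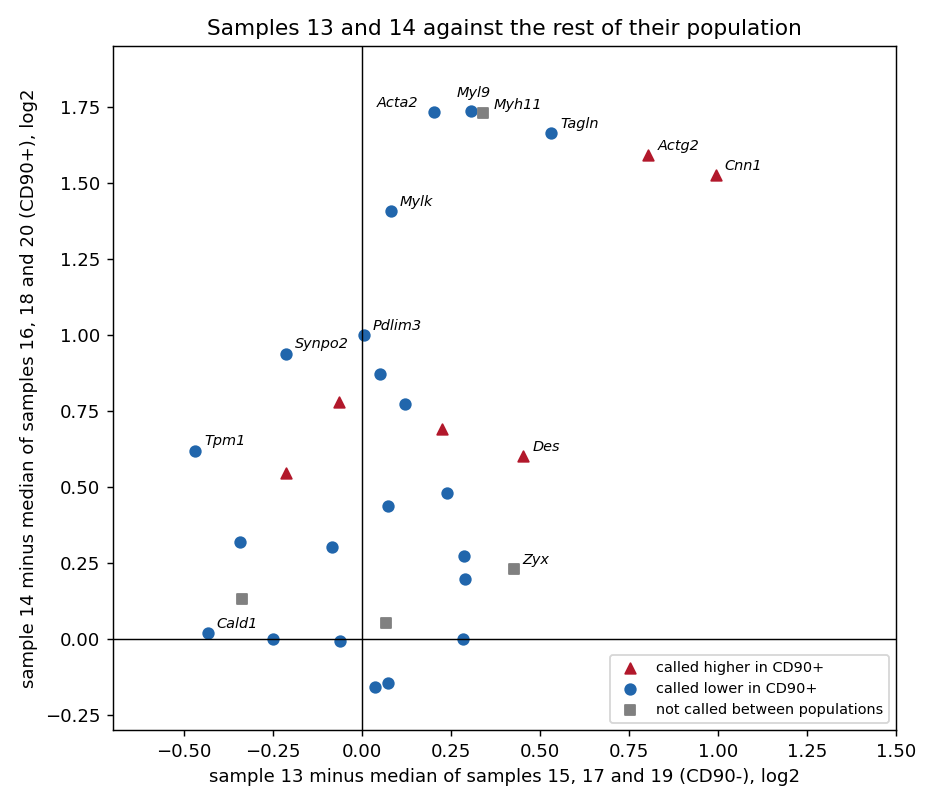
Each point is 1 of the 31 tested contractile genes. The horizontal axis gives sample 13 minus the median of the other CD90-negative samples, and the vertical axis gives sample 14 minus the median of the other CD90-positive samples, both in log2, with symbols by call. Most points lie above 0 on the vertical axis, with Myl9, Acta2, Myh11, Tagln, Actg2, Cnn1 and Mylk at the top, and only Cnn1, Actg2 and Tagln lie at 0.5 or more on the horizontal axis.

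Markers of other cells that the sort could hold were measured beside these values, and their part in the results was not tested. Over all tested genes 14.0% were called higher and 15.7% lower, the shares to set beside the counts of each list. The 10 mural cell genes averaged 8.31 to 8.57 in CD90-negative samples and 7.76 to 7.83 in samples 16, 18 and 20, with sample 14 between the sets. Of the 8 tested, 3 rose and 4 fell, and 3 of the 10 lay below the negative controls in both means. The 4 measured genes of interstitial cells of Cajal averaged 9.29 in sample 13, 7.29 to 7.42 in the other CD90-negative samples and 6.46 to 6.96 in the CD90-positive ones, and 1 of 3 tested fell. The 8 measured enteric glia genes were called higher. Of these, Gfap reached the filter on low values in 0 of 4 CD90-negative samples and Cdh19 and Kcna1 in 2 of 4, so they passed it through their CD90-positive values. Gfap and Foxd3 lay below the negative controls in both means. Foxd3 lost its call without samples 13 and 14 (limma adjusted p = 0.0665) or when sample 17, 19 or 20 was left out. For Erbb3 the populations overlapped, with 7.14 in sample 13 and 7.10 in sample 14. The mean of the 8 was between 5.49 and 5.79 in CD90-negative samples, 7.08 in sample 14, and from 7.66 to 8.39 in samples 16, 18 and 20. The 8 mesothelial genes averaged 6.50 in sample 14, 6.00 to 6.26 in samples 16, 18 and 20 and 5.46 to 6.11 in the CD90-negative samples, with 2 of 5 tested genes higher, of which Upk3b passed the filter through its CD90-positive values alone, and 6 of the 8 below the negative controls in both means.

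The 10 epithelial genes averaged 7.78 to 9.70 in CD90-negative samples, highest in sample 13, and 8.25 to 9.65 in CD90-positive ones. Of these, 0 of 10 were called in limma, and the lowest unadjusted p was 0.303. Only 2 of the 10 lay below the negative controls in both means. The brightest were Car1 (12.32 ± 1.64 and 13.15 ± 0.81), Muc2 (12.24 ± 1.52 and 12.74 ± 0.84) and Krt8 (10.73 ± 1.27 and 11.05 ± 1.18), so epithelial transcripts were present in both populations. The endothelial mean was 5.81 to 6.33 and 5.85 to 6.42, with 1 of 7 tested genes higher, 2 lower and 8 of 10 measured below the negative controls in both population means, and the leukocyte mean 5.64 to 5.86 and 5.85 to 6.34, with 4 of 6 tested genes higher and 7 of 9 measured below those controls. Of those 4 calls, Cd68 kept its own whichever sample was left out, while Cd3e, Cd79a and Fcgr3 each lost theirs without any 1 of 6 samples (limma adjusted p at most 0.0868). In the endothelial and leukocyte lists sample 14 had the lowest CD90-positive mean. The 16 measured genes of skeletal and cardiac muscle averaged 5.17 to 5.28 and 5.19 to 5.24, with 14 of them below those controls.

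Other genes of the contractile pathway were taken from 3 lists, and those named are the up to 4 with the smallest p in each. Of 36 tested focal adhesion and actin scaffold genes, 17 fell and 5 rose (15.7% and 14.0% of all tested genes), with a median difference of -0.33. Fhl2, a LIM-only protein that can bind SRF, fell from 11.75 ± 0.16 to 8.96 ± 0.25 (limma adjusted p = 1.67e-06). Pdlim1, a relative of Pdlim3, fell from 13.51 ± 0.14 to 11.04 ± 0.37 (limma adjusted p = 1.43e-05). Both integrin activators named by the rule moved the same way: Fermt2, the kindlin-2 gene, fell from 14.37 ± 0.12 to 13.14 ± 0.26, and Tln2, another talin gene, fell from 9.36 ± 0.22 to 8.23 ± 0.058, with limma adjusted p of 0.000144 and 8.2e-05.

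Of 35 tested further smooth muscle genes, 10 fell and 9 rose (15.7% and 14.0% of all tested genes), with a median difference of 0.031. Mrvi1 codes for the substrate through which cGMP kinase restrains calcium release, and was at 10.85, 10.86, 10.98 and 11.09 in CD90-negative samples and 7.56, 6.59, 6.56 and 6.56 in CD90-positive ones. The sets were far apart, sample 14 was again the highest CD90-positive one, and the difference was -4.13 (SE 0.22, limma adjusted p = 3.05e-06). Hspb8, a small heat shock protein, rose from 8.81 ± 0.69 to 11.60 ± 0.20 (limma adjusted p = 0.000186). Tmod2, a capping protein of actin filaments, rose from 7.57 ± 0.35 to 9.09 ± 0.15 (limma adjusted p = 0.000196). Ckb, the brain-type creatine kinase, rose from 6.06 ± 0.043 to 6.63 ± 0.082 (limma adjusted p = 0.000219), below the negative controls in both means.

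Of 20 tested SRF cofactors and partner transcription factors, 6 fell and 2 rose (15.7% and 14.0% of all tested genes), with a median difference of -0.024. The forkhead factors of gut mesenchyme were among them: Foxf2 fell from 13.47 ± 0.10 to 11.43 ± 0.30 and Foxf1 fell from 12.66 ± 0.13 to 11.61 ± 0.22, with limma adjusted p of 1.43e-05 and 0.000215. Nkx2-3, a homeobox factor of gut mesenchyme, fell from 10.07 ± 0.19 to 8.99 ± 0.12 (limma adjusted p = 9.97e-05). Phactr4, an actin-binding regulator of protein phosphatase, fell from 10.49 ± 0.17 to 9.21 ± 0.20 (limma adjusted p = 8.47e-05). Differences between these lists were not tested.

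**Figure D4:**
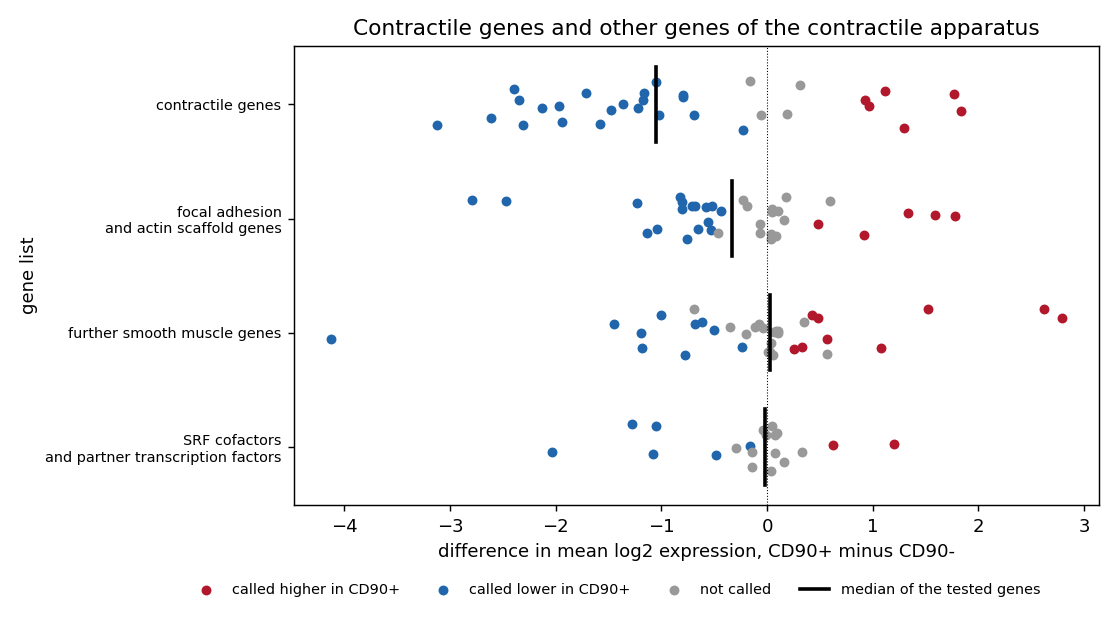
Difference in mean log2 expression, CD90-positive minus CD90-negative (horizontal axis), of each tested gene of the contractile list and of 3 further lists (vertical axis, points spread at random within a list). Red and blue points were called higher and lower, grey points were not called, and black bars mark the medians. The bar of the contractile genes lies at -1.05, and those of the other lists lie between -0.33 and 0.031.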

How the data were processed

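Each of 8 samples of sorted cells was hybridised to its own single-colour Affymetrix array of the mouse transcriptome, from 2 ng of RNA that was amplified, per the labels' protocols. The authors deposited log2 values per transcript cluster, made with Affymetrix Expression Console 1.1 and RMA per the submitters' processing notes; the settings and the array's genome build are not given in the sources used here.

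Clusters were named from the platform annotation, with symbols updated through RefSeq gene identifiers (GRCm38.p6): 31266 of 65956 clusters named 1 gene, 1484 several and 33206 none. A gene took its cluster with the highest mean. Clusters entered the fit if they reached 5.36, which is the median over clusters and arrays, in 4 or more of the 8 samples. The 17214 genes left were fitted with limma 3.58.1 (R 4.3.3; lmFit and eBayes, no block), and two-sided p-values were adjusted over all of them by Benjamini-Hochberg. The fit was tested on simulated data. Tables and figures used Python 3.11.15, pandas 2.3.3 and matplotlib 3.10.9.

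The members and the gene lists were chosen with earlier results of these data known. Named genes were all members, up to 4 genes with the smallest p among those called in each further list, and the genes of the sort gate. A further list is not reported here. Alternatives changed the filter, normalization, variance model, array weights, choice of cluster, a term for samples 13 and 14, and the samples left out. The number of arrays limits the precision.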

Additional observations from a re-analysis of the deposited data

Results flagged for a closer look

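In groups of 4 samples a value was marked when its gap to the nearest of the others took up most of the group's range (Dixon's test). Of 98 groups checked, over 49 named genes in both populations, 17 held such a value, and chance marks about 1 in 20 groups. Sample 14 gave 11 of the 17, all high. Among the members it was at 12.14 for Myl9 (others 10.34 to 10.41), 10.86 for Tagln (others 8.97 to 9.21), 12.58 for Myh11 (others 10.83 to 10.87), 11.79 for Actg2 (others 10.08 to 10.20), 9.65 for Cnn1 (others 8.01 to 8.28), 9.57 for Tpm2 (others 8.64 to 8.73) and 14.93 for Flna (others 14.09 to 14.20), and at 9.77 for Smtn (others 9.29 to 9.32) and 10.34 for Synm (others 9.79 to 9.87). Outside the members it was at 7.56 for Mrvi1 (others 6.56 to 6.59) and 13.54 for Pdpn (others 13.06 to 13.11). Sample 13 gave 3 values: high ones of 7.48 for Cnn1 (others 6.46 to 6.53) and 8.09 for Tmod2 (others 7.34 to 7.45), and a low one of 12.87 for Cald1 (others 13.27 to 13.34). Sample 18 was low for Myh10 at 9.13 (others 9.45 to 9.47). Sample 16 was high for Hspb8 at 11.89 (others 11.49 to 11.53), and sample 15 for Ptprc at 4.74 (others 4.49 to 4.53), below the filter on low values. These genes share their samples, so the marks are not independent of each other.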

How the results depend on the processing

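Over 19 alternatives, between 20 and 22 members fell and 5 or 6 rose, and their median difference lay between -1.12 and -0.998 (-1.05 as reported); leaving out 1 sample at a time gave 20 or 21, 5 or 6 and the same range of medians. Of 588 single-member results under the alternatives, 571 kept their direction and side of the threshold. Myh11 changed sign with array weights (-0.021) and without sample 14, its range over the fits without 1 sample being -0.12 to 0.47, and Ppp1r12b was called lower with array weights (limma adjusted p = 0.0433); the cause was not tested. The other 14 were lost calls of Actg2 and Cnn3: those without the filter or without named samples given above, and, for Cnn3, after another quantile normalization (limma adjusted p = 0.264). No scaling changed the sign of a called member. The genes called in the whole table ranged from 1912 to 3121 higher and from 1996 to 3888 lower, and the further lists together from 43 to 58 (49 as reported). With a term for samples 13 and 14, 21 members fell and 6 rose (18.7% and 16.3% of all tested genes, 35.0% in either direction), and Actg2 had a limma adjusted p of 0.000245. No paired analysis was run because the titles give the populations different numbers and no label ties a sample to a mouse. Values near the negative control rows limit Lmod1, Myocd, Des, Cnn1 and Ldb3.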

Other observations

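Among 8 tested mural cell genes 4 fell and 3 rose (15.7% and 14.0% of all tested genes), and the order and detail given here were chosen after their values were seen. Abcc9, a subunit of a potassium channel of vascular smooth muscle and pericytes, was at 11.10, 11.04, 11.18 and 11.08 in CD90-negative samples and 8.90, 7.21, 7.60 and 7.22 in CD90-positive ones (limma adjusted p = 0.000125). Its channel partner Kcnj8 fell from 7.98 ± 0.49 to 5.88 ± 0.30, where it lay below the negative controls. The pericyte proteoglycan gene Cspg4 fell from 9.11 ± 0.24 to 7.58 ± 0.12. Gucy1b3, a subunit of the nitric oxide receptor, fell from 12.87 ± 0.25 to 10.72 ± 0.42. Rgs5, a regulator of G protein signalling known from pericytes, was at 8.57, 7.21, 6.61 and 6.36 in CD90-negative samples and 8.29, 8.73, 9.06 and 8.64 in CD90-positive ones and was called higher (limma adjusted p = 0.0316), although sample 13 overlapped the CD90-positive range. Leaving out any 1 of samples 15 to 20 ended that call (limma adjusted p at most 0.0841). Mcam, an adhesion molecule of mural and endothelial cells, was at 8.03, 7.69, 7.87 and 7.91 in CD90-negative samples and 9.41, 9.49, 8.83 and 9.23 in CD90-positive ones, with the populations apart (limma adjusted p = 0.000162). Notch3, a receptor of mural cells, was called higher by 0.23 (limma adjusted p = 0.0192), with both means below the negative controls. It lost its call without sample 18 or 19. Higd1b and Ndufa4l2, which also mark pericytes, were below the filter on low values in all 8 samples, at most 4.57 and 4.06. Pdgfrb, the brightest gene of the list, was at 13.94 ± 0.21 and 14.21 ± 0.15 and was not called (limma adjusted p = 0.116).

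Ano1, the chloride channel gene of interstitial cells of Cajal, was at 11.37, 10.07, 9.92 and 9.68 in CD90-negative samples and 7.77, 6.60, 6.69 and 7.06 in CD90-positive ones (limma adjusted p = 0.000341). Kit, which also marks these cells, was at 10.56, 7.49, 6.63 and 6.96 in CD90-negative samples and 7.61, 6.85, 6.49 and 6.91 in CD90-positive ones, so sample 13 stood alone there and the populations overlapped (limma adjusted p = 0.406). Thbs4 of the same list was at 7.63 ± 0.59 and 7.64 ± 0.70 and was not called (limma adjusted p = 0.985). Prkcq was not tested, and its highest value was 7.22 in sample 13.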
